A study of Mus musculus with 6 samples.

Results

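The genes described here are the collagen prolyl and lysyl hydroxylases, their partner subunits and the collagen chaperone Serpinh1, chosen by symbol: P4ha1, P4ha2, P4ha3, P4hb, P3h1, Crtap, Plod1, Plod2, Plod3 and Serpinh1. All 10 were among the 16540 genes of the deposited table, and all 10 passed the filter on low counts. RNA came from NIH-3T3 cells, an established line of mouse embryonic fibroblasts from NIH/Swiss stock, in 6 libraries. All cells carried lentiviral Cas9 with 1 guide RNA, were selected with 2 ug/mL puromycin and were kept as polyclonal pools, so a pool may hold unedited cells beside edited ones and no single clone was studied. The control pool (2 libraries) carried R26 sg1, the guide that the labels give to the control group. The other pools carried PC sg2 (2 libraries) or PC sg5 (2 libraries), where PC, by the title of the series, is pyruvate carboxylase, the mitochondrial enzyme that makes oxaloacetate from pyruvate and whose mouse gene is Pcx. RNA of every pool, control included, was taken after 48 h in DMEM that held 10% dialyzed serum and 0.2 mM glutamine. The title of the series asks about collagen production, and the comparison of both PC guides with the control asks here how the transcripts of the collagen-modifying enzymes stood in the same cells.

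Procollagen chains are modified in the endoplasmic reticulum (ER) before they fold into a helix. Prolyl 4-hydroxylase, a tetramer of catalytic alpha subunits (P4ha genes) and protein disulfide isomerase (P4hb), hydroxylates prolines and so makes the helix stable at body temperature. Prolyl 3-hydroxylase and lysyl hydroxylases (Plod genes) modify other residues, and hydroxylysine is the site of sugar attachment and of stable cross-links. These hydroxylases use oxygen, iron, ascorbate and 2-oxoglutarate, a metabolite of the TCA cycle. Serpinh1 (HSP47) binds the folded helix and accompanies it out of the ER.

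Values are normalised read counts, that is, reads divided by a size factor of the library, which compare 1 gene between libraries. The shallowest library, PC sg5 replicate 2, held 22895172 recovered reads and the deepest, control replicate 2, held 71710049. Control replicate 1 held 69337013 and the deepest PC library, PC sg2 replicate 1, held 63701586, so both controls were deeper than every PC library. The part of depth in the differences between control and PC libraries was not tested. The 3-read floor was 2.18 to 6.41 normalised counts, far under every value of the 10 genes (a limit for counting error only). The targeted gene Pcx stood at 2914 and 3015 normalised counts under R26 sg1, at 316 and 375 under PC sg2, and at 713 and 716 under PC sg5. Of 8 fibroblast markers 7 were in the table, with a summed level of 473496 to 480470 in the controls, against 177595 to 187684 in the PC libraries. All 7 fell with both PC guides against the control, with a median log2 fold change of -1.52. Of all genes tested in that comparison 33.6% fell, and the median over all of them was -0.01. Marker sums of other cell types were lower than those of the fibroblast list. They were 57.4 to 58.7 and 8.55 to 19.1 (control and PC libraries) for the epithelial list, with Cdh1 alone of 6 in the table. The leukocyte list (5 of 7 in the table, without Ptprc and Adgre1) summed to 1919 to 2009 and 1246 to 1324. The endothelial list (3 of 5, without Cdh5 and Kdr) summed to 99.9 to 100.1 and 234 to 344. The adipocyte list (2 of 5, without Adipoq, Plin1 and Cidec) summed to 836 to 925 and 364 to 376, and the muscle list (2 of 5, without Myod1, Myog and Myh3) to 221 to 230 and 96.2 to 163. The chondrocyte and osteoblast list (3 of 7, without Acan, Sp7, Bglap and Ibsp) summed to 8861 to 9338 and 6707 to 7392. The part of these shifts in the results below was not tested.

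With both PC guides against the control, 8 of the 10 genes fell and 2 rose. P4ha3, a catalytic subunit of prolyl 4-hydroxylase, fell most, to 25.2% of its control mean. P3h1, Crtap, P4hb, Serpinh1, Plod1, P4ha2 and P4ha1 fell to between 55.2% and 77.4%. The lysyl hydroxylase gene Plod2 rose to 143% and Plod3 to 108%. By limma with Benjamini-Hochberg adjustment over all genes, all 10 passed an adjusted p of 0.05, in a comparison where 67.9% of the 16526 genes tested passed, 33.6% as lower and 34.3% as higher. The share of these 10 genes that passed is therefore read against a background in which most genes moved. The median log2 fold change was -0.59 over the 10 genes and -0.01 over all genes tested. Only P4ha3 fell at least 2-fold, which 11.3% of all tested genes did. In all 10 genes the 4 PC libraries lay outside the range of the 2 controls, as they did for 73.2% of all tested genes. In bulk RNA, fewer cells of a type and less RNA per cell cannot be told apart. Whether the libraries of a guide are separate cultures is not stated in the labels, and the p-values then reflect the spread between these libraries alone, which may be technical.

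**Figure D1:**
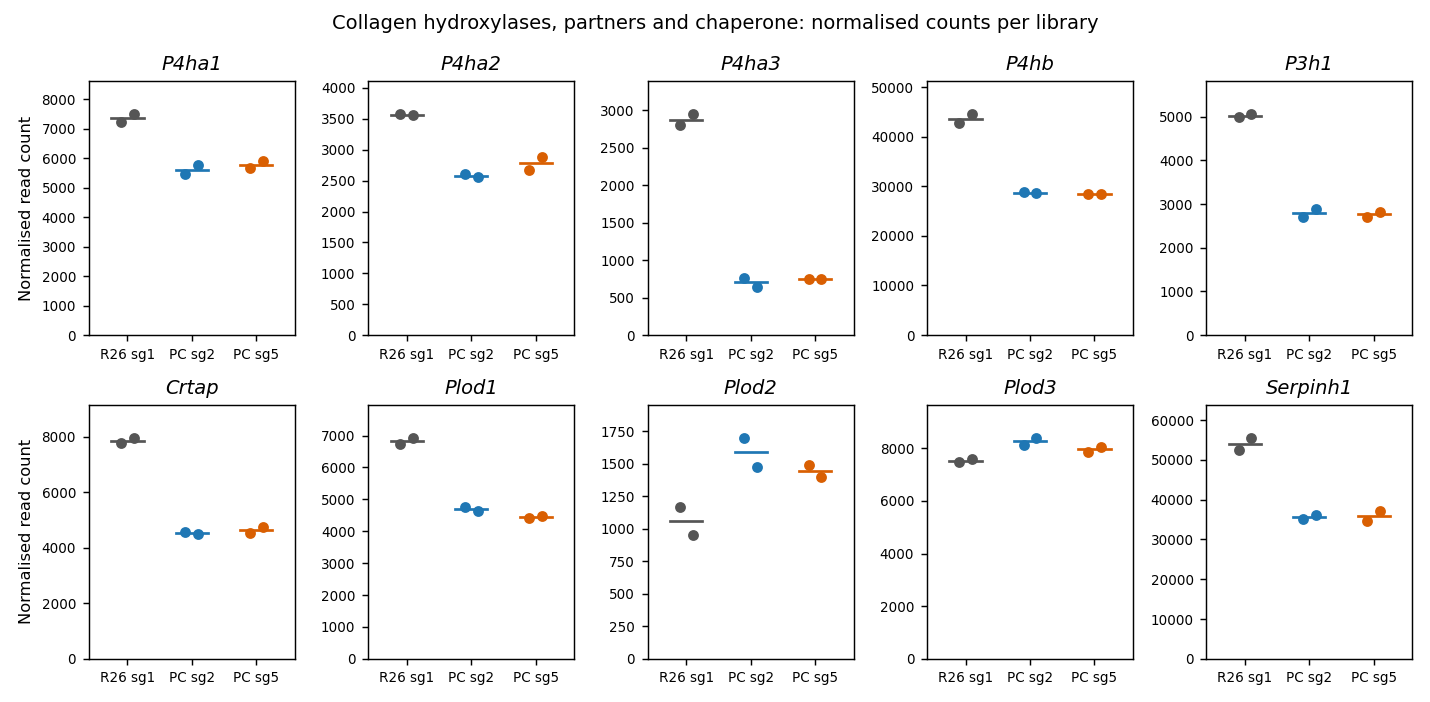
Normalised read counts (y axis, from 0, with its own scale in each panel) of the 10 genes in each library of the R26 sg1 control, PC sg2 and PC sg5 pools (x axis), with each point 1 library and each line the mean of 2. P4ha3 dropped from 2804 and 2949 in the controls to between 643 and 768, Plod2 rose, and Plod3 sat slightly above the controls in all 4 PC libraries.

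Among the alpha subunits of prolyl 4-hydroxylase, P4ha1 (ENSMUSG00000019916, GRCm38 chromosome 10, 59323296 to 59373304, plus strand) and P4ha2 (ENSMUSG00000018906, chromosome 11, 54100095 to 54131665, plus strand) fell less than P4ha3 (ENSMUSG00000051048, chromosome 7, 100285520 to 100319699, plus strand). P4ha1 is the widely expressed catalytic isoform, and P4ha2 and P4ha3 are its paralogs. Their promoters are printed here because these isoenzymes of the same reaction fell to different extents. Each is the stretch from 250 bases before to 50 bases after a RefSeq start site (build GRCm38.p6, plus strand), read 5′ to 3′. Capitals mark ACGTG on either strand, a form of the core of the hypoxia response element to which HIF binds. Other forms of that core were neither searched nor marked.
P4ha1 (chr10:59323046-59323345): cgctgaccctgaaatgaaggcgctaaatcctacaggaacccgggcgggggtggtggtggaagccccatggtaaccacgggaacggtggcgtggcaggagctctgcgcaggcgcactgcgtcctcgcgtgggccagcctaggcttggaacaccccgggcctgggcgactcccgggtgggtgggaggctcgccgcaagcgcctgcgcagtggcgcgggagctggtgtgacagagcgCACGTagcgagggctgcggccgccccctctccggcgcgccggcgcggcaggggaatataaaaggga
P4ha2 (chr11:54100674-54100973): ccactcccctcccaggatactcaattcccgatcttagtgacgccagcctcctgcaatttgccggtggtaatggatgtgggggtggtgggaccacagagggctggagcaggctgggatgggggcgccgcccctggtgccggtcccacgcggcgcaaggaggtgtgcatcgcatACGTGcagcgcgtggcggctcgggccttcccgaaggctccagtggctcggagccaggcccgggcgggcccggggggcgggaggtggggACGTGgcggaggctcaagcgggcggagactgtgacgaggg
P4ha3 (chr7:100285270-100285569): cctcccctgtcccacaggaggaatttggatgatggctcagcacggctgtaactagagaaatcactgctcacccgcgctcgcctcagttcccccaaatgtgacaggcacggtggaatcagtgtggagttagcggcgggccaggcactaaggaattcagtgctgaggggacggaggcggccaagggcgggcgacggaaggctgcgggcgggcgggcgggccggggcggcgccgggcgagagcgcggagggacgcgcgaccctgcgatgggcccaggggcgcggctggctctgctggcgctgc
In P4ha1 the match begins 16 bases before the start site on the minus strand, in P4ha2 the matches begin 78 bases before and 10 bases after it on the plus strand, and P4ha3 has none in this window. The P4ha2 window begins at 54100674, inside the gene, whose annotated start is 54100095. The stretch of P4ha2 before that annotated start was not searched. The table of promoters held entries for 9 of the 10 genes, with P3h1 entered with 2 start sites and Plod2 not among them. ACGTG was present in 6 of these 10 entries (P4ha1, P4ha2, P4hb, Plod3, Serpinh1 and the second P3h1 entry) and in 19.6% of all 32851 promoter entries of the same length. The second P3h1 entry begins at 119233579, also inside the gene, whose annotated start is 119232915. Other motifs were searched on both strands too. CCAAT, the CCAAT box, was found for P3h1, Plod3 and P4hb (37.4% of all entries), and GAANNTTC, a heat shock element core, for Plod1 (7.86%). No entry of these genes held TGATGNAA, a composite element of ATF4 and CEBP factors (3.97% of all entries), or the ER stress element, CCAAT and CCACG with 9 bases between, which contains the CCAAT box (0.119%). A match is a stretch of letters and not a shown binding site.

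P4ha3 stood at 2804 and 2949 normalised counts under R26 sg1, at 768 and 643 under PC sg2, and at 744 and 750 under PC sg5. Both guides were far below the controls, and their ranges overlapped each other. The mean went from 2876 ± 102 (SD, n = 2) to 726 ± 56.4 (SD, n = 4), and the log2 fold change was -1.99 ± 0.07 (SE; limma adjusted p = 1.06e-16). Of all tested genes, 2.64% had a lower log2 fold change.

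P4ha1 stood at 7246 and 7495 normalised counts under R26 sg1, at 5458 and 5777 under PC sg2, and at 5681 and 5893 under PC sg5. Its fall, from 7370 ± 176 (SD, n = 2) to 5702 ± 184 (SD, n = 4), was the smallest of the genes that fell, with a log2 fold change of -0.37 ± 0.03 (SE). P4ha2 stood at 3575 and 3554 normalised counts under R26 sg1, at 2599 and 2561 under PC sg2, and at 2669 and 2890 under PC sg5, with a log2 fold change of -0.41 ± 0.04 (SE). The log2 ratio of P4ha2 to P4ha1 averaged -1.05 in the controls and -1.09 in the PC libraries, with overlapping ranges and a difference of -0.04. An exact two-sided permutation test over libraries gave p = 0.400, where 2 against 4 libraries cannot go below 0.0667. The test therefore shows neither a difference nor its absence. It shuffles libraries as if each were independent, although they come in pairs that share a guide. Its p-values, here and below, thus describe these libraries alone and not an effect over pools.

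Seen per length of annotated exons, the make-up of the alpha subunit transcripts shifted away from P4ha3. P4ha3 held 27.7% and 28.2% of the summed P4ha counts per kilobase in the controls, 12.3% and 10.2% under PC sg2, and 11.6% and 11.2% under PC sg5. The share of P4ha1 was 54.6% ± 0.09 (SD, n = 2) in the controls and 67.7% ± 1.25 (SD, n = 4) in the PC libraries, and that of P4ha2 was 17.1% and 17.7% in the controls, against 20.3% to 21.7% in the PC libraries. With the length of the longest principal transcript in place of all exons, P4ha3 went from 26.3% to 10.5%, while P4ha2 stood at 34.5% and 41.1%, since its annotated exons (6239 bases) exceed its principal transcript (2230 bases). The shares by isoform therefore depend on the length used, and the drop of P4ha3 was seen with both.

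P4hb (ENSMUSG00000025130, chromosome 11, 120560298 to 120573253, minus strand) encodes protein disulfide isomerase, which serves as the beta subunit of prolyl 4-hydroxylase and also forms disulfide bonds in many other secreted proteins. It stood at 42782 and 44529 normalised counts under R26 sg1, at 28777 and 28596 under PC sg2, and at 28430 and 28378 under PC sg5, where all 4 PC libraries lay within a narrow band. Its log2 fold change was -0.61 ± 0.02 (SE), with a limma adjusted p of 3.78e-16. The summed P4ha counts per kilobase fell to 62.4% of the control mean and P4hb to 65.4%. Per kilobase, P4hb stood at 4.63 and 4.67 times the summed alpha subunits in the controls and at 4.65 to 5.06 times in the PC libraries, so these ranges overlapped. The log2 ratio of P4ha1 to P4hb was higher by 0.24 in the PC libraries, with ranges that did not overlap and the smallest p that 2 against 4 libraries can give (exact two-sided permutation test, p = 0.0667).

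**Figure D2:**
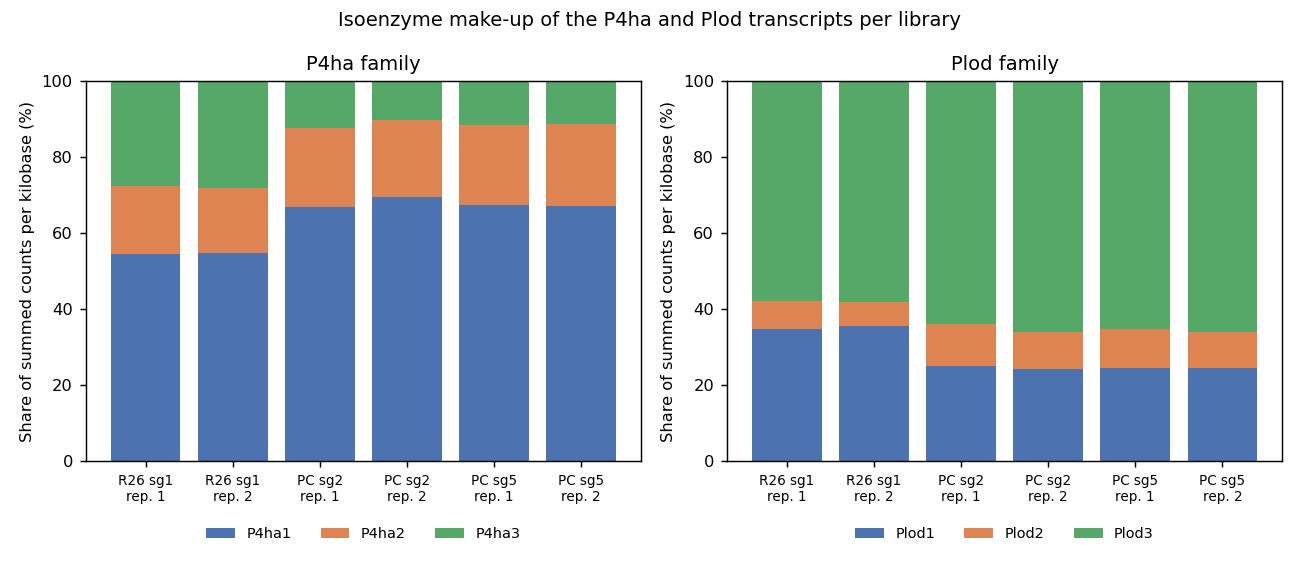
Share in percent (y axis, from 0 to 100) of each isoenzyme in the summed normalised counts per kilobase of annotated exons of the P4ha family (left) and the Plod family (right), 1 bar per library. P4ha3 shrank from 27.7% and 28.2% in the controls to 10.2% to 12.3% in the PC libraries, and Plod1 from a mean of 35.1% to a mean of 24.6%.

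P3h1 and Crtap, which form the prolyl 3-hydroxylase complex of the ER together with cyclophilin B (Ppib), fell together. P3h1 (ENSMUSG00000028641, chromosome 4, 119232915 to 119248975, plus strand), the enzyme of the complex, stood at 4995 and 5059 normalised counts under R26 sg1, at 2694 and 2879 under PC sg2, and at 2702 and 2826 under PC sg5. Crtap (ENSMUSG00000032431, chromosome 9, 114375134 to 114390675, minus strand), its non-catalytic partner, stood at 7764 and 7966 normalised counts under R26 sg1, at 4582 and 4495 under PC sg2, and at 4534 and 4745 under PC sg5. The PC libraries were well below the controls for both genes, and the libraries of PC sg2 and PC sg5 overlapped. Their log2 fold changes were -0.86 ± 0.04 (SE) and -0.78 ± 0.03 (SE), with limma adjusted p-values of 2.90e-14 and 6.66e-15. The log2 ratio of P3h1 to Crtap was -0.65 ± 0.01 (SD, n = 2) in the controls and -0.73 ± 0.06 (SD, n = 4) in the PC libraries, ranges that overlapped (exact two-sided permutation test over libraries, p = 0.267). Ppib fell less, by 0.46 ± 0.03 (SE) on the log2 scale, and is named here as a subunit of the complex after its value was seen.

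The lysyl hydroxylases moved in opposite directions. Plod1 (ENSMUSG00000019055, chromosome 4, 147909753 to 147936767, minus strand), which hydroxylates lysines in the helical part of collagen, stood at 6722 and 6928 normalised counts under R26 sg1, at 4760 and 4642 under PC sg2, and at 4426 and 4470 under PC sg5. Its log2 fold change was -0.58 ± 0.03 (SE), with a limma adjusted p of 8.87e-13. All 4 PC libraries were lower than both controls, and the PC sg5 libraries were both below those of PC sg2.

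Plod2 (ENSMUSG00000032374, chromosome 9, 92542223 to 92608428, plus strand) encodes the enzyme that hydroxylates lysines in the telopeptides, the ends from which collagen molecules are cross-linked. It stood at 1165 and 955 normalised counts under R26 sg1, at 1700 and 1478 under PC sg2, and at 1488 and 1400 under PC sg5. The lowest PC library was above the higher control, while the control libraries lay farther apart, relative to their mean, than for the other 9 genes. Its mean went from 1060 ± 148 (SD, n = 2) to 1517 ± 129 (SD, n = 4), and the log2 fold change was 0.52 ± 0.07 (SE; limma adjusted p = 1.42e-06). The log2 ratio of Plod2 to Plod1 was -2.53 and -2.86 in the controls and between -1.67 and -1.48 in the PC libraries, a difference of 1.10 (exact two-sided permutation test over libraries, p = 0.0667, the smallest these numbers of libraries allow). Over the 6 ratios tested in this way, the Benjamini-Hochberg adjusted p was 0.100 for each of the 4 ratios at the smallest p, and 0.320 and 0.400 for the others. Gm38391, a locus of unconfirmed coding status on the opposite strand that shares 6.42% of the exon bases of Plod2, had 40.5 normalised counts in the control and 16.5 in the PC libraries. The use of the strand in counting is not given in the sources used here. Reads that fall on 2 overlapping genes may therefore count for either gene or for none.

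Plod3 (ENSMUSG00000004846, chromosome 5, 136987019 to 136996648, plus strand), a lysyl hydroxylase that also transfers sugars to hydroxylysine, was close to its control level. It stood at 7483 and 7582 normalised counts under R26 sg1, at 8131 and 8399 under PC sg2, and at 7852 and 8065 under PC sg5. The PC libraries were all above the controls by a small margin, and the log2 fold change was 0.11 ± 0.03 (SE; limma adjusted p = 0.00329). This call was lost with quantile normalisation (adjusted p = 0.0550) and without the intensity trend (adjusted p = 0.0592), and the alternatives together spanned adjusted p-values of 0.000108 to 0.0592. Of the exon bases of Plod3, 11.9% are shared with Znhit1 on the opposite strand and the microRNA gene Mir702. Znhit1 rose by 0.37 on the log2 scale, from 1305 to 1691 normalised counts, and its part in the value of Plod3 was not tested.

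Summed per kilobase, the Plod transcripts came to 2866 and 2879 in the controls, against between 2668 and 2819 in the PC libraries, 95.8% of the control mean. Within that sum Plod1 went from 35.1% ± 0.63 (SD, n = 2) to 24.6% ± 0.28 (SD, n = 4), Plod2 from 6.85% ± 0.98 to 10.2% ± 0.73, and Plod3 from 58.0% ± 0.35 to 65.2% ± 1.00. None of these ranges overlapped between control and PC libraries, where the counts of 73.2% of all tested genes did not overlap either. The shares of a library add up to the whole, so they are not separate observations. With the length of the principal transcript the shares of Plod1, Plod2 and Plod3 went from 44.9%, 6.19% and 49.0% to 32.8%, 9.66% and 57.5%.

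Serpinh1 (ENSMUSG00000070436, chromosome 7, 99345376 to 99353239, minus strand), the collagen chaperone, stood at 52455 and 55526 normalised counts under R26 sg1, at 35173 and 36067 under PC sg2, and at 34575 and 37034 under PC sg5. The mean went from 53991 ± 2172 (SD, n = 2) to 35712 ± 1074 (SD, n = 4), and the log2 fold change was -0.60 ± 0.03 (SE; limma adjusted p = 1.69e-14). Both PC guides lay well below the controls and overlapped each other. Among the other 9 genes, P4hb and Plod1 had log2 fold changes nearest to it, at -0.61 and -0.58.

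Levels were compared between genes per kilobase of annotated exons. In the controls the order was Serpinh1 (22100 ± 889 normalised counts per kilobase, SD, n = 2), P4hb (15259 ± 432), Crtap (4438 ± 80.7), P4ha1 (1792 ± 42.7), Plod3 (1667 ± 15.5), P3h1 (1307 ± 11.8), Plod1 (1009 ± 21.6), P4ha3 (917 ± 32.6), P4ha2 (571 ± 2.41) and Plod2 (197 ± 27.5). No neighbours in that order overlapped between the control libraries. In the PC libraries P4ha3 dropped to the last place, at 232 ± 18.0 (SD, n = 4), below Plod2 at 281 ± 23.8, and Plod3 at 1795 ± 49.9 stood above P4ha1 at 1386 ± 44.8. P3h1 (722 ± 23.9) and Plod1 (676 ± 22.9) were neighbours there whose libraries overlapped. With principal transcript lengths, a choice added after the data were seen, Serpinh1, P4hb and Crtap kept the first places in both groups, while 6 of the 10 ranks in the control and 4 in the PC libraries differed, so the order in the middle is uncertain.

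Each guide alone gave the same 8 genes lower and 2 higher. Of all tested genes 64.5% passed for PC sg2 (31.6% lower, 32.9% higher) and 64.5% for PC sg5 (31.8% lower, 32.6% higher). Both comparisons use the same control libraries. P4ha3 had a log2 fold change of -2.03 ± 0.08 (SE) with PC sg2 and -1.94 ± 0.08 with PC sg5, and Plod2 had 0.59 ± 0.08 and 0.45 ± 0.08. P3h1 stood at -0.85 and -0.86, Crtap at -0.79 and -0.76, P4hb at -0.61 and -0.62, Serpinh1 at -0.60 and -0.59, and Plod1 at -0.54 and -0.62. P4ha1 stood at -0.39 and -0.35, and P4ha2 at -0.47 and -0.36. Plod3 was at 0.13 with PC sg2 and at 0.08 with PC sg5, where its limma adjusted p of 0.0493 was at the edge of the threshold and ranged from 0.00221 to 0.238 over the alternatives. For PC sg5 it did not pass without control replicate 1 (adjusted p = 0.192), control replicate 2 (adjusted p = 0.0958), PC sg5 replicate 2 (adjusted p = 0.208), PC sg2 replicate 1 (adjusted p = 0.0562) or PC sg2 replicate 2 (adjusted p = 0.0567). It also missed the threshold with DESeq2 (adjusted p = 0.0762) and edgeR (adjusted p = 0.0501), with only the control and PC sg5 libraries (adjusted p = 0.0572), with quantile normalisation (adjusted p = 0.238) and without the intensity trend (adjusted p = 0.168). For PC sg2 its limma adjusted p was 0.00178, and without the intensity trend 0.0505, with the alternatives spanning 0.000131 to 0.0505.

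Compared directly, PC sg5 and PC sg2 did not differ past the threshold in any of the 10 genes by limma, where 0.242% of all tested genes passed. At an unadjusted limma p under 0.05, 2 genes were past it (P4ha2 and Plod1), where 10.6% of all tested genes were, while edgeR and DESeq2 called 0 of the 10 after adjustment and 1 (P4ha2) and 0 before it. P4ha2 was higher with PC sg5 by 0.11 (95% interval 0.0055 to 0.21, adjusted p = 0.442 by limma) and Plod1 differed by -0.08 (95% interval -0.16 to -0.00031, adjusted p = 0.467 by limma). For Serpinh1 the difference was 0.01 with a 95% interval of -0.06 to 0.07, and for P4ha3 it was 0.09 with an interval of -0.07 to 0.25. The widest interval was that of Plod2, from -0.31 to 0.04. These intervals bound the difference between the guides and do not show that it is nil. The libraries of both guides did not overlap in 4 of the 10 genes (P4ha2, P4hb, Plod1 and Plod3), as in 39.3% of all tested genes. The targeted gene itself differed between the guides, with Pcx at 345 ± 42.2 (SD, n = 2) for PC sg2 and 715 ± 2.04 (SD, n = 2) for PC sg5. The number of all genes that differed between the guides, 40, ranged from 10 without PC sg2 replicate 2 and 14 without PC sg2 replicate 1, through 26 without either control replicate, to 218 without PC sg5 replicate 1, and no gene of the 10 passed in any of these fits, where 1 or 0 had an unadjusted p under 0.05.

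**Figure D3:**
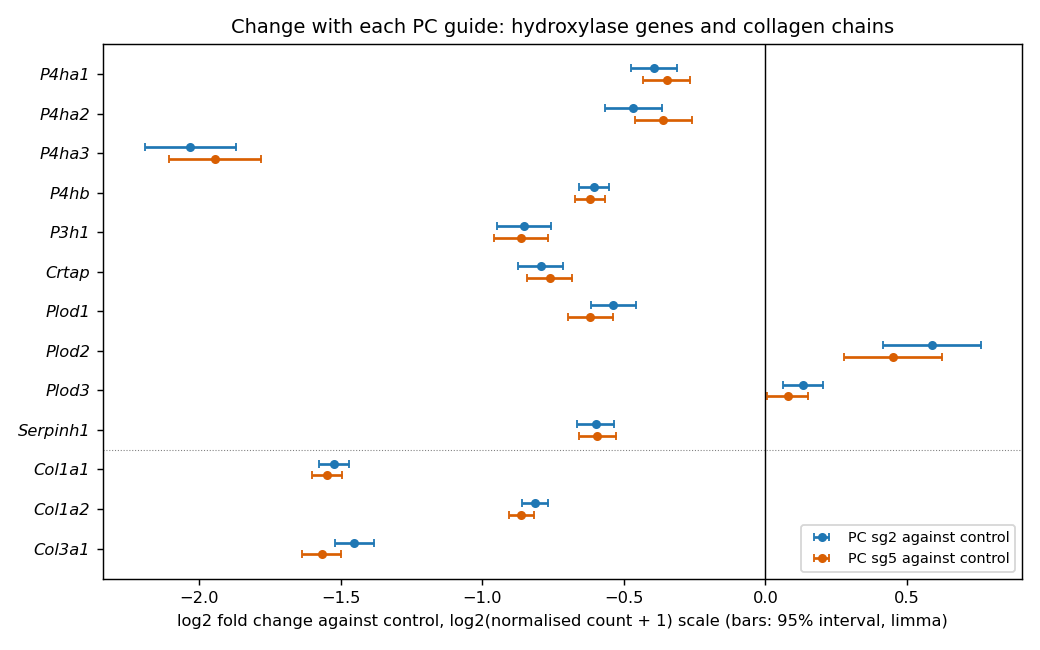
Log2 fold change against the control (x axis, with 95% intervals from limma) of the 10 genes and, under the dotted line, 3 collagen chains, for PC sg2 and PC sg5 (y axis, genes; colours, guides). The points of both guides lie close to each other for each gene, P4ha3 stands near -2.03 and -1.94, Plod2 and Plod3 lie right of 0, and Col1a1 and Col3a1 lie left of every member other than P4ha3.

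The fibrillar collagen chains are substrates of these enzymes. Col1a1, a chain of type I collagen, went from 269755 ± 12960 normalised counts (SD, n = 2) to 92987 ± 1393 (SD, n = 4), 34.5% of the control. Col3a1 went to 35.2% and Col1a2, which pairs with Col1a1 in type I collagen, to 55.9%. Of 10 fibrillar collagen genes tested (Col24a1 was not in the table), 8 fell and 1 rose, with a median log2 fold change of -1.20, where 33.6% of all genes tested fell and 34.3% rose. Whether this list differs from the 10 genes was not tested. Among the chains that fell, Col5a2, named after its value was seen, had the smallest change, at -0.28 ± 0.02 (SE), a smaller fall than that of any of the 8 genes described here that fell. The gene that rose was Col11a2, at 2.28 ± 0.05 (SE), and Col2a1 did not pass (-0.85, adjusted p = 0.0761 by limma), a gene named after its value was seen.

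Relative to Col1a1, the hydroxylase and chaperone transcripts were more abundant in the PC libraries, with the exception of P4ha3. Per 1000 Col1a1 counts, Serpinh1 had 201 and 199 counts in the controls, 370 and 389 under PC sg2, and 375 and 402 under PC sg5. P4ha1 had 27.8 and 26.9 under R26 sg1, 57.4 and 62.3 under PC sg2, and 61.7 and 64.0 under PC sg5. Thus 1.92 times as much Serpinh1 and 2.24 times as much P4ha1 transcript was counted per Col1a1 transcript, on counts that are not corrected for length. P3h1, Crtap, P4hb, Plod1 and P4ha2 stood at 1.60, 1.69, 1.90, 1.94 and 2.18 times their control values on this scale. Plod2 was at 4.13 times and Plod3 at 3.12 times. P4ha3 had 10.8 and 10.6 counts per 1000 Col1a1 counts in the controls, against 6.94 to 8.14 in the PC libraries, 0.732 times the control. As a log2 ratio, Serpinh1 to Col1a1 was higher by 0.94 and P4ha1 to Col1a1 by 1.17, each with ranges that did not overlap and the smallest p these libraries can give (exact two-sided permutation test, p = 0.0667). Such ratios do not depend on the size factors, but they do depend on the collagen chain chosen. Col1a2 fell to 55.9% of its control mean, close to P3h1 (55.2%) and Crtap (58.3%). Col5a2, at -0.28 on the log2 scale, fell less than each of the 8 genes described here that fell. Ratios to chains other than Col1a1 were not computed.

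**Figure D4:**
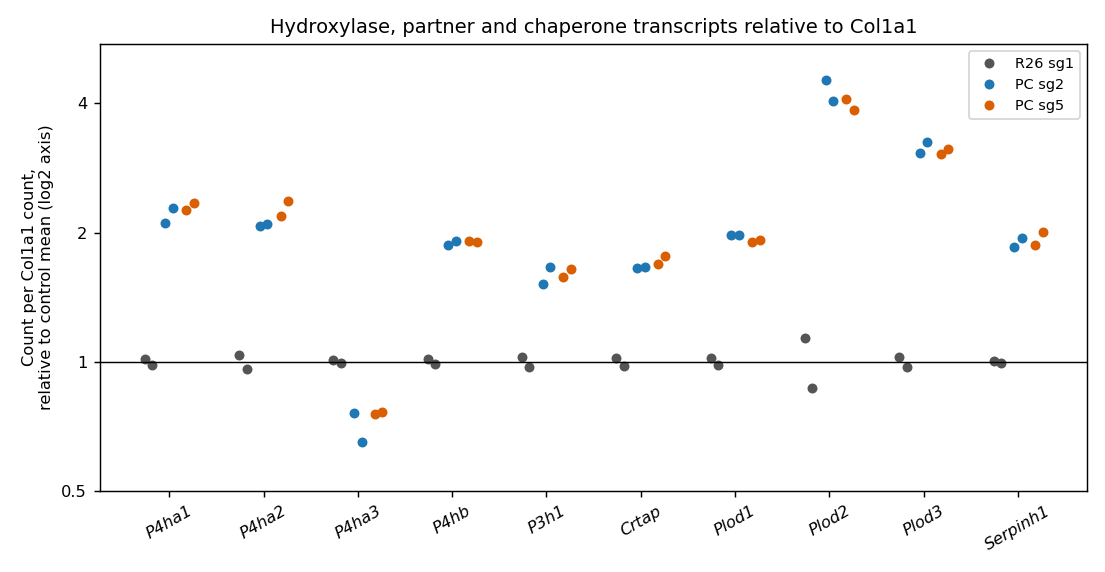
Normalised count of each gene per Col1a1 count, divided by the mean of that ratio in the controls (y axis, log2 axis), with 1 point per library for R26 sg1, PC sg2 and PC sg5 (x axis, genes). P4ha3 is below 1 in all 4 PC libraries (0.732 on average), the other 9 genes are above 1, and Plod2 is highest at 4.13.

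Other ER genes of procollagen modification and folding mostly fell as well. Of 10 tested (Colgalt2 was not in the table), 9 fell and 1 rose, with a median log2 fold change of -0.48, where 33.6% of all genes tested fell. P3h3 and P3h2, relatives of P3h1, fell by 0.99 ± 0.04 (SE) and 0.92 ± 0.06 on the log2 scale, and the ER prolyl isomerases Fkbp7 and Fkbp9 by 0.89 ± 0.06 and 0.50 ± 0.03. P3h2 and the complex subunit Ppib share exon bases with Gm4524 and Snx22 on the opposite strand (28.4% for P3h2), so their values are less certain. P3h3 went from 5448 ± 7.64 (SD, n = 2) to 2748 ± 44.0 (SD, n = 4) normalised counts. The 1 that rose, named after its value was seen, was Tmem38b, an ER cation channel, at 0.82 ± 0.08 (SE).

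Of the general folding genes of the ER, the disulfide isomerase family held more genes that fell and the chaperones more that rose. In the protein disulfide isomerase family and its oxidases, without P4hb, 7 of 14 fell and 3 rose, and the 4 left did not pass (median log2 fold change -0.15), beside 33.6% lower and 34.3% higher over all genes tested. The oxidase gene Ero1l, which reoxidises protein disulfide isomerase, rose by 1.47 ± 0.03 (SE) from 4268 to 11840 normalised counts, while Txndc5, Pdia3 and Dnajc10 fell by 0.63, 0.57 and 0.44. Of 10 general ER chaperones 6 rose and 2 fell, and the 2 left did not pass (median 0.19), beside the same 34.3% higher and 33.6% lower over all genes. Hspa5 (BiP) rose by 1.53 ± 0.02 (SE), Hyou1 by 1.08 ± 0.03 and the lectin chaperone gene Canx by 0.33 ± 0.02, and Calr, another lectin chaperone gene, fell by 0.57 ± 0.02.

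Protein hydroxylases that use 2-oxoglutarate on substrates other than collagen mostly rose. Of 12 tested, 8 rose and 1 fell, and the 3 left did not pass (median 0.35), where 34.3% of all genes tested rose and 33.6% fell. Riox1 and Riox2, ribosomal oxygenases, rose by 1.01 ± 0.07 (SE) and 0.87 ± 0.06, Jmjd6 by 0.98 ± 0.04 and Ogfod1, which acts on a ribosomal protein, by 0.54 ± 0.04. Riox1 and Riox2 share 31.9% and 22.4% of their exon bases with Gm26571 and Crybg3, so their values are less certain. The 1 that fell, named after its value was seen, was Egln3, a HIF prolyl hydroxylase, at -0.40 ± 0.16 (SE, limma adjusted p = 0.0322). With PC sg2 alone it was not called lower.

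Genes that supply the cosubstrates moved both ways. The list held 15 genes for enzymes that make 2-oxoglutarate and for the transport of ascorbate, iron and other metals. Of these, 8 rose and 5 fell, and the 2 left did not pass (median 0.08), beside 34.3% higher and 33.6% lower over all genes tested. Idh1, the cytosolic isocitrate dehydrogenase, fell by 1.86 ± 0.04 (SE), from 12772 ± 47.3 (SD, n = 2) to 3533 ± 305 (SD, n = 4) normalised counts. The transaminase genes Got1 and Gpt2 rose by 1.49 ± 0.03 and 0.78 ± 0.04, and Slc39a13, a metal transporter of the secretory pathway whose loss causes a connective tissue disorder, fell by 1.08 ± 0.04. Whether Slc39a13 supplies iron to these hydroxylases was not tested.

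P4ha1, P4ha2, Plod1 and Plod2 are known to be induced by hypoxia through HIF, so hypoxia-inducible genes are given beside them. Of 13 such genes 4 rose and 8 fell, and the 1 left did not pass (median -0.22), beside 34.3% higher and 33.6% lower over all genes tested. Vegfa rose by 0.50 ± 0.03 (SE), and Pdk1, Ndrg1 and Ldha fell by 1.21 ± 0.08, 0.31 ± 0.03 and 0.29 ± 0.02. Every gene said to have risen or fallen in these lists had a limma adjusted p of at most 0.0329.

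**Figure D5:**
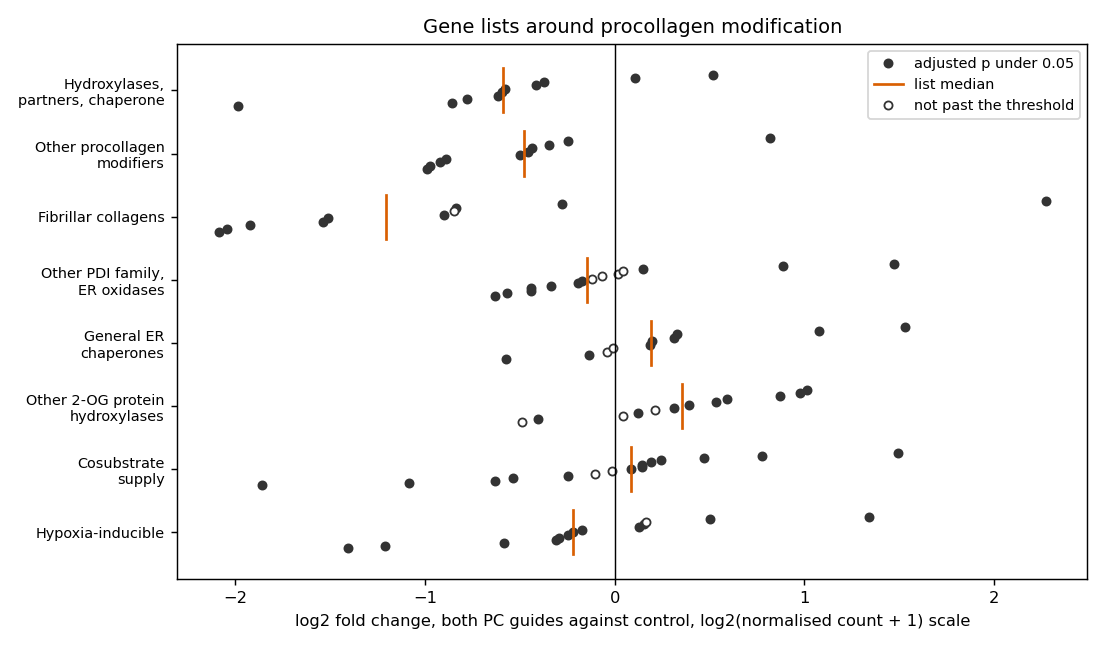
Log2 fold change of both PC guides against the control (x axis) for each tested gene of 8 lists (y axis), with filled points past an adjusted p of 0.05, open points not past it and a bar at the list median. The 10 genes described here have a median of -0.59, the other procollagen modifiers of -0.48 and the fibrillar collagens of -1.20, while general ER chaperones (0.19) and other 2-oxoglutarate protein hydroxylases (0.35) have medians above 0.

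By the rule for likeness, the root mean square difference of log2 values centred on each gene's mean over the 6 libraries, the genes nearest to P4ha1 outside the 10 were Dusp19 (0.0121), Twf2 (0.0146) and Zkscan3 (0.0147). Nearest to Serpinh1 were Ckap4 (0.0162), which encodes an ER membrane protein, Nfkb2 (0.0178) and Slc7a2 (0.0184), a cationic amino acid transporter. Nearest to Plod2 were Cwf19l1 (0.0212), Lars2 (0.0449), the mitochondrial leucyl-tRNA synthetase, and Gm23935 (0.0479). Gm23935 is annotated as a microRNA gene and had 33486 to 58613 normalised counts per library, the highest in PC sg2 replicate 1. Lars2 stood at 25090 and 20958 normalised counts under R26 sg1, at 35631 and 30485 under PC sg2, and at 31303 and 27850 under PC sg5. As for Plod2, control replicate 2 was the lowest library and PC sg2 replicate 1 the highest for both of them, and their part in the value of Plod2 was not tested. Whether the reads counted for Lars2 and Gm23935 came from transcripts of these genes was not tested either. With 16526 genes and 6 libraries, close profiles of this kind are a description.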

How the data were processed

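RNA was measured in 6 libraries of polyadenylated RNA, made with the NEBNext Ultra kit per the labels. The authors deposited 1 table of normalised counts, a signal made by dividing gene counts by library size factors. The submitters' processing notes list STAR, featureCounts, DESeq2, bcl2fastq 2.17, Trimmomatic and GRCm38; for settings, annotation and strand use, no source used here states them. Within each library 100% of values were whole multiples (tolerance 0.01 of a read) of 1 step, so whole reads were recovered. Identifiers were matched to GENCODE M21, and 16491 of 16540 received a symbol. Size factors remove depth under the assumption of no common shift of most genes and leave gene length in the values.

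Genes reaching 10 normalised counts in 2 or more libraries were kept (16526, with 14 removed). Their log2(normalised count + 1) values went into limma 3.58.1 (R 4.3.3), as 3 groups in 1 model of all 6 libraries with a trend on intensity. Tests were two-sided, and p-values were Benjamini-Hochberg adjusted over all genes kept. This scale understates changes of genes with low counts. The model left 3 residual degrees of freedom, to which limma added a median of 17.3 from the spread over all genes. Ratios of genes within a library were compared with an exact permutation test. The method was tested on simulated data. edgeR 4.0.16 (11424 genes called for both guides) and DESeq2 1.42.0 (10604) on recovered reads, other pseudocounts, filters and scalings, a replicate block and leaving out each library were alternatives. No outlier test was made, since each group has 2 libraries.

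The genes and lists were chosen with earlier results of these data known. Named are the 10 genes and Pcx, then Col1a1, Col1a2, Col3a1 and from each list the 4 genes with the smallest p for both guides against control, and for P4ha1, Plod2 and Serpinh1 the 3 genes nearest in profile. Gene lengths are the merged GENCODE M21 exons, and promoters are from RefSeq.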

Additional observations from a re-analysis of the deposited data

Results flagged for a closer look

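The targeted gene differed between the PC guides by the direct test. Pcx was higher with PC sg5 (715 ± 2.04 normalised counts, SD, n = 2) than with PC sg2 (345 ± 42.2, SD, n = 2), a log2 difference of 1.05 ± 0.08 (SE) with a limma adjusted p of 6.60e-07 and both PC sg5 libraries above both PC sg2 libraries. None of the 10 collagen-modifying genes passed the same test by limma, where 0.242% of all genes passed, so that a count of 0 among 10 is near the background. At an unadjusted limma p under 0.05 there were 2, beside 10.6% of all genes, and DESeq2 and edgeR called 0 after adjustment. The share of edited cells was not analysed here.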

How the results depend on the processing

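For both guides against control, the fold changes of P4ha1, P4ha2, P4ha3, P4hb, P3h1, Crtap, Plod1, Plod2 and Serpinh1 kept their direction and their side of the threshold under all 16 alternatives run, with Plod2 between 0.38 and 0.66 and P4ha3 between -2.05 and -1.92. The fit with only the libraries of the groups compared is the same model there and was not run. Without the intensity trend, the limma adjusted p-values of the genes just named rose to between 0.000301 (P4ha3) and 0.0183 (Plod2). The much smaller p-values given with their values therefore rest on that trend. Plod3 lost its call in some fits, as given with its values. In the direct test of PC sg5 against PC sg2, 40 genes passed, against 85 with DESeq2, 68 with edgeR, 65 when genes with a mean under 50 were dropped, 65 with a pseudocount of 10 and 0 by limma without the intensity trend (1241 at an unadjusted p under 0.05), and 10 to 218 when 1 library was left out. With the replicate number as a block, 160 genes passed. The numbers share no label of a common batch, and deviations of same-numbered libraries correlated at -0.02, 0.03 and 0.03 across genes, so the numbers were not taken to pair the libraries. The block moved no call of the 10 genes. Differences between the guides near 0 changed sign, none past the threshold: P4hb was 0.0079 with quantile normalisation, and with 1 library left out P4ha3 ranged from -0.0407 to 0.215, P3h1 from -0.0592 to 0.0368, Crtap from -0.0013 to 0.0644 and Serpinh1 from -0.0429 to 0.0563. The cause was not tested. With 2 libraries a group the spread is poorly known, and a library left out leaves a lone library that is assumed to vary like the other groups. The 6 log2 ratios kept their sign under every alternative run, in a design that cannot pass the threshold.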
